A study of Mus musculus with 13 samples.

Results

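The class I antigen presentation pathway is described here through 10 genes, taken from the count table by their symbols (10 of 24394): the immunoproteasome subunits Psmb8, Psmb9 and Psmb10, the peptide transporter genes Tap1 and Tap2, the loading factor Tapbp, the light chain B2m and the heavy chain genes H2-K1, H2-D1 and H2-T23. All 10 were found and all 10 passed the filter on low counts. The study asks whether fibroblasts in which the transcription factor Foxn1 is switched on come to resemble thymic epithelial cells (TEC). RNA was measured in 13 libraries: mouse embryonic fibroblasts (MEF) of E13.5 labelled as untreated (n = 2), induced TEC (iTEC) taken 2 days (n = 2) or 10 days (n = 3) after Cre delivery, iTEC of day 12 sorted as Epcam-positive (n = 2) or Epcam-negative (n = 2), and TEC of the E15.5 fetal thymus labelled as untreated (n = 2). Per the labels, the fibroblasts are primary iFoxn1/+ cells, which carry a Cre-inducible Foxn1 allele, and pPGK-Cre-bpA, a plasmid with Cre under the Pgk promoter, was brought in with a Nucleofector. The genotype field reads N/A for every sample, no label puts a delivery or a plasmid without Cre among the samples, and the same protocol text stands under fetal TEC. What nucleofection, Cre, induced Foxn1 and culture time each did therefore cannot be told apart.

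Class I molecules show peptides of a cell's own proteins to CD8 T cells. The proteasome cuts proteins into peptides, and in the immunoproteasome Psmb8, Psmb9 and Psmb10 take the places of the catalytic subunits Psmb5, Psmb6 and Psmb7. Tap1 and Tap2 pump the peptides into the endoplasmic reticulum, where Tapbp (tapasin) helps to load them onto a heavy chain paired with B2m. Interferons raise many of these genes through Irf1 and the class I activator Nlrc5. In the thymus, cortical TEC present class I peptides to developing CD8 T cells and put a further subunit, Psmb11, in the place of Psmb5 or Psmb8.

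Each library held 35805780 to 86465460 counts, so 3 counts corresponded to 0.03 to 0.0776 CPM. Levels are CPM after scaling with edgeR's TMM factors. Changes are log2 ± standard error from edgeR's quasi-likelihood fit of all 13 libraries, with p-values adjusted over the 17004 genes tested and called at an adjusted p under 0.05. No label ties a replicate to its own culture or animal, so p-values may measure technical spread only. Foxn1 itself stood at 18.3 and 13 CPM in MEF, 299 to 382 CPM at day 2, 422 to 440.4 CPM at day 10, 292 to 326 CPM in Epcam-positive and 391 to 468 CPM in Epcam-negative cells, and 362 CPM in both fetal TEC libraries. The fetal TEC pair and replicate 2 of the Epcam-positive cells stood apart. Their levels, taken relative to each gene's mean log2 level over the 13 libraries, fell with exon length (rho -0.378 to -0.339). Such relative levels rose with length in the other 10 libraries (rho 0.226 to 0.324). As the mean includes all 13 libraries, rho places a library against the series and is no property of that library alone. The 3 libraries with negative rho are called length-skewed below. The summed level of 10 TEC markers was 1551 to 1604 CPM at day 2, 5346 to 5784 CPM at day 10, 4649 and 28544 CPM in Epcam-positive cells, 4586 to 4803 CPM in Epcam-negative cells and 31923 to 38001 CPM in fetal TEC, against 41.7 to 50.4 CPM in MEF, where Epcam and Dll4 were at 0. The 8 fibroblast markers summed to 6495 to 7843 CPM at day 2, 12097 to 13171 CPM at day 10, 1514 and 28219 CPM in Epcam-positive cells, 10663 to 11444 CPM in Epcam-negative cells and 1063 to 1709.7 CPM in fetal TEC, against 43412 to 44742 CPM in MEF, and no TEC marker was at 0 in the other groups. Xist and 4 Y-linked genes split the libraries. Xist was at 1266 to 2278 CPM in MEF and 795 to 1053 CPM in Epcam-negative cells, with the Y genes at 0 to 0.0164 CPM. The Y genes summed to 46.3 to 326 CPM at day 2, at day 10 and in Epcam-positive cells, where Xist was at 0 to 1.34 CPM. Fetal TEC carried both, with the Y genes at 32.8 to 40.8 CPM and Xist at 6.05 to 8.21 CPM. Comparisons across that split also compare cells of different sex, and those with fetal TEC may do so in part.

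Of the 10 genes, 8 lie on mouse chromosome 17 within or beside the H2 complex (mm10, 33915899 to 36032855), and 4 of them sit in 1 block of 34181987 to 34216321: Psmb9 (34181987 to 34187764, minus strand), Tap1 (34187553 to 34197225, plus), Psmb8 (34197721 to 34201454, plus) and Tap2 (34203527 to 34216321, plus). Psmb9 and Tap1 are a divergent pair whose annotated ends overlap by 212 bases. Tapbp (33915899 to 33929292, plus), H2-K1 (33996017 to 34000347, minus), H2-D1 (35262730 to 35267499, plus) and H2-T23 (36029773 to 36032855, minus) complete the group on that chromosome. Psmb10 is on chromosome 8 (105935735 to 105938444, minus) and B2m on chromosome 2 (122147686 to 122153083, plus). In GENCODE M21, 8 of the 10 genes overlap another symbol, most over the opposite strand, and the sources used here do not state whether counting used strand. B2m lies wholly within Patl2, and Tapbp shares 3422 bases with Zbtb22 on its own strand.

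Because these genes moved together at day 2, their promoters are shown. RefSeq windows on GRCm38.p6 (mm10), 250 bases before to 50 bases after the start, were held for 9 of the 10 genes and not for Tap2. Those of 6 genes are printed, 5′ to 3′ on the gene's own strand; those of Psmb9, Psmb10 and Tapbp, which hold none of the motifs put in capitals, and an overlapping alternative window of H2-K1 are left out. Capitals mark matches to interferon-linked or NF-kB-type motifs, searched on both strands. The Tap1 window, which shares 275 bases with that of Psmb9 read from the other strand, has none.
Psmb8 (chr17:34197945-34198244, plus): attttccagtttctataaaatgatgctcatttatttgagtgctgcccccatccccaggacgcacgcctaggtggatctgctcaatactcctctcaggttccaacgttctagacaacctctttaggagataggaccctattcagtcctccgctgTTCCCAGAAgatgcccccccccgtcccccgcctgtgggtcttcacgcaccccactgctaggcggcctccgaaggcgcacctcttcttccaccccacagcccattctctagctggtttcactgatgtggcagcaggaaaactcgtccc
Tap1 (chr17:34187306-34187605, plus): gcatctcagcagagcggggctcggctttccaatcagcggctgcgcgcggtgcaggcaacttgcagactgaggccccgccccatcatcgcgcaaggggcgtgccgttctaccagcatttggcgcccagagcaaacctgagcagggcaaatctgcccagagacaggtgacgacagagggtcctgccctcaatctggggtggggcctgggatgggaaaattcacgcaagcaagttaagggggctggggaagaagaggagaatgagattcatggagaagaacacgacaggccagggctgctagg
B2m (chr2:122147437-122147736, plus): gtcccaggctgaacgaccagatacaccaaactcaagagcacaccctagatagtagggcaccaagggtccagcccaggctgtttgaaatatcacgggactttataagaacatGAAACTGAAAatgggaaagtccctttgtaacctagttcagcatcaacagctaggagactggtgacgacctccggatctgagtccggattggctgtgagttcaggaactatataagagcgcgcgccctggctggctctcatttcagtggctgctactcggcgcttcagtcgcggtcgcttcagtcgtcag
H2-K1 (chr17:34000298-34000597, minus): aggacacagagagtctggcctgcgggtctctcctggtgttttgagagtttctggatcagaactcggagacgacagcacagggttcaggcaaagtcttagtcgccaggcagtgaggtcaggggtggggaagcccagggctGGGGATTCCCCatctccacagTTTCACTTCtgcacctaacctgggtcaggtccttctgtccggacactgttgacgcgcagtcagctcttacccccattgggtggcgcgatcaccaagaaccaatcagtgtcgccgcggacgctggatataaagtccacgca
H2-D1 (chr17:35262844-35263143, plus): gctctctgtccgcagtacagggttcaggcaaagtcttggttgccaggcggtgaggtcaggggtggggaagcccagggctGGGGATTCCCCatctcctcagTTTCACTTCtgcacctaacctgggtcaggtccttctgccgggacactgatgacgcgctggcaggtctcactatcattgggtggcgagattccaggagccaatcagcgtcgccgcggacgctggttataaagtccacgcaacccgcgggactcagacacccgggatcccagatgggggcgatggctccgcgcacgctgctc
H2-T23 (chr17:36032652-36032951, minus): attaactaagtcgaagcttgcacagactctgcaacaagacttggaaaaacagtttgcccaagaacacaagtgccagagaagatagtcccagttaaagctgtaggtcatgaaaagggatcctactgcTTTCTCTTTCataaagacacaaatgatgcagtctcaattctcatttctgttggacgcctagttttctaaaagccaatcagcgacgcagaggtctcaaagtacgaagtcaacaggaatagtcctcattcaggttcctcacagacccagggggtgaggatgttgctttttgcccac

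The interferon-stimulated response element (ISRE), searched as a pair of GAAA copies with any 2 bases between them, was found in the windows of B2m and H2-T23 and in 3.44% of 32851 mouse promoter windows of the same length. The shorter form GAANNGAAA, bound by interferon regulatory factors (IRF), was found in H2-K1 and H2-D1 and in 7.52% of windows. The palindrome TTCNNNGAA, the interferon gamma-activated sequence (GAS), was found in Psmb8 and in 8.3% of windows. The NF-kB-type motif, the first run of capitals in H2-K1 and H2-D1, is the element known as enhancer A. It was searched as a fixed string with no free base, and was held by 10 windows in all (0.0304%). That low share belongs to the exact string and does not measure how rare NF-kB-type sites are. The overlapping alternative window of H2-K1 held the string too. The windows of H2-K1 and H2-D1 were identical at 211 of 239 aligned bases (88.3%), so their matches are not independent. The core TGACG of cAMP response elements (CRE) was found in Psmb9, Tap1, B2m, H2-K1 and H2-D1 (20.8% of windows), and CCAAT in 7 of the 9 (37.4%). The Foxn1 core GACGC was found in Psmb8, H2-K1, H2-D1 and H2-T23 (27.2% of windows), and in H2-K1 and H2-D1 1 of its matches overlaps TGACG. Psmb10 and Tapbp held none of the interferon-linked or NF-kB-type motifs. A match is a description of letters and not evidence of binding.

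**Figure D1:**
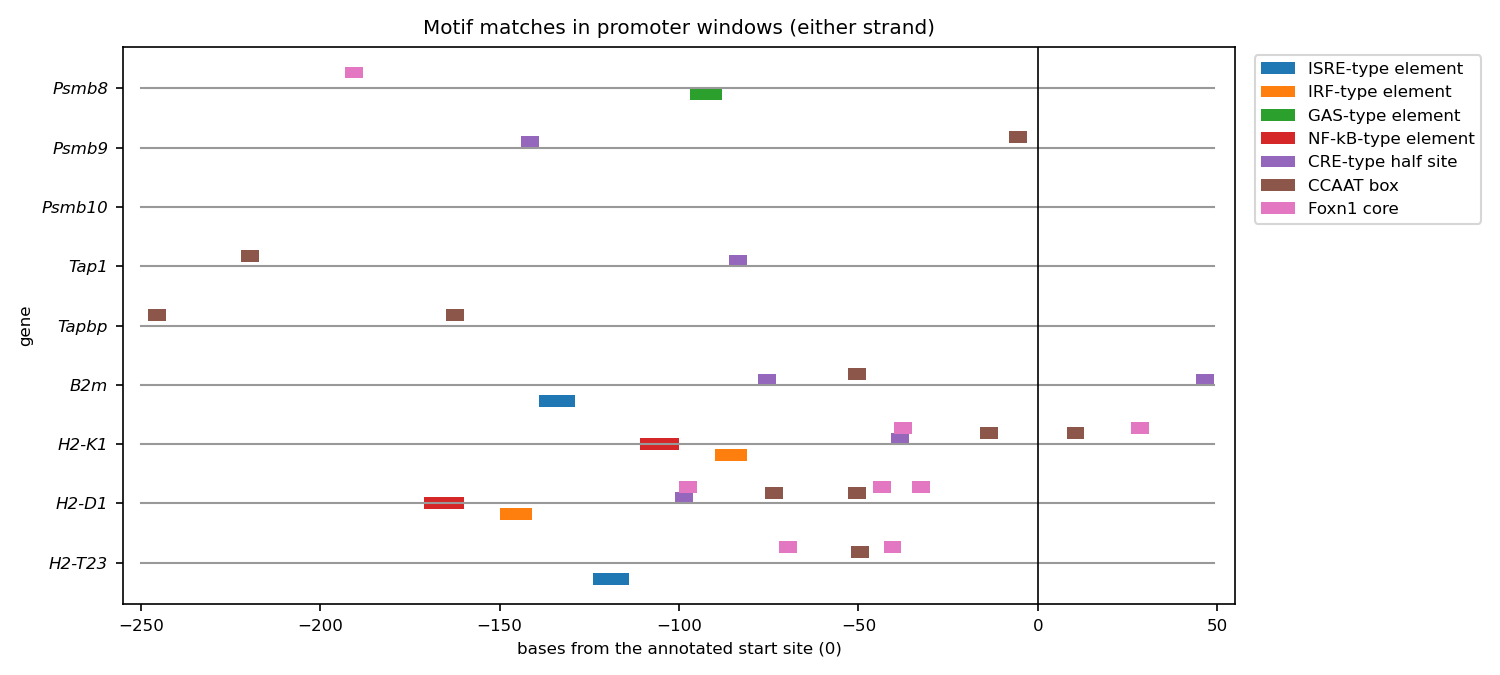
Matches to 7 motifs in the promoter windows of 9 genes, drawn by distance from the annotated start site in bases, on either strand. B2m and H2-T23 carry an ISRE-type match at -139 to -130 and -124 to -115, Psmb8 a GAS-type match at -97 to -89, and H2-K1 and H2-D1 an NF-kB-type match followed by an IRF-type match.

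At day 2 after Cre the pathway was up as a group. Compared with MEF, 6 of the 10 genes rose, none fell and 4 did not pass the test (called among all tested genes: 5.52%, of which 2.87% higher and 2.65% lower), and the median log2 change of the 10 was 2.97, against 0 over all genes tested. All 10 genes were higher in both day 2 libraries than in both MEF libraries, a pattern found in 28.9% of all tested genes.

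All 3 immunoproteasome subunits rose. Psmb8, whose protein replaces Psmb5, had 119.9 and 142 CPM at day 2, against 12.3 and 8.6 CPM in MEF (log2 3.64 ± 0.3, 12.5-fold, adjusted p = 0.000203). Psmb9, which replaces Psmb6, had 17.2 and 20.1 CPM at day 2, against 1.44 and 0.622 CPM in MEF (log2 4.17 ± 0.52, adjusted p = 0.00165). Psmb10, which replaces Psmb7, had 113 and 142 CPM at day 2, against 9.01 and 4.55 CPM in MEF (log2 4.23 ± 0.59, adjusted p = 0.00311). The day 2 libraries lay close to each other for each subunit, and the MEF libraries spread by a wider factor. The catalytic subunits that they replace did not pass the test: Psmb5 had 46.1 and 68 CPM at day 2 against 51.3 and 22.4 CPM in MEF, Psmb6 had 88.9 and 84.6 CPM against 82.5 and 53.7 CPM, and Psmb7 had 99.5 and 105 CPM against 79.2 and 69 CPM (adjusted p = 0.446 to 0.935). Over the 14 genes of the 20S proteasome core, 0 were called at day 2 by edgeR, 0 had an unadjusted p under 0.05, and DESeq2 called 0.

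Both transporter genes rose. Tap1 had 129.9 and 161 CPM at day 2, against 27.1 and 11.5 CPM in MEF (log2 2.91 ± 0.6, adjusted p = 0.022). Tap2 had 104 and 111 CPM at day 2, against 31.2 and 16.5 CPM in MEF (log2 2.18 ± 0.46, adjusted p = 0.0238). MEF replicate 1 was the higher MEF library for both genes, and both calls were the least firm of the 6: the adjusted p passed 0.05 without MEF replicate 2 or either day 2 library (Tap1 0.088 to 0.17), and Tap2 lost its call also without MEF replicate 1 or any day 10 library (0.0506 to 0.18). Tapbp had 496 and 537 CPM at day 2, against 89.4 and 36.9 CPM in MEF, and narrowly missed the threshold (log2 3.03 ± 0.79, adjusted p = 0.0584).

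Among the chains of the class I molecule itself, H2-T23, the non-classical heavy chain that presents leader peptides as Qa-1, had 77.4 ± 11.6 CPM at day 2, against 16.5 ± 1.38 CPM in MEF (SD, n = 2 each; log2 2.23 ± 0.31, adjusted p = 0.00269). H2-K1, a classical heavy chain, had 796 and 864 CPM at day 2, against 64.6 and 59.7 CPM in MEF (log2 3.74 ± 2.13, adjusted p = 0.441). H2-D1, the other classical heavy chain here, had 799.6 and 823 CPM at day 2, against 138 and 106 CPM in MEF (log2 2.73 ± 2.02, adjusted p = 0.595). The replicates of H2-K1 and H2-D1 lay close together within MEF and within day 2, and the large standard errors come from the spread shared over all groups, to which Epcam-positive replicate 2, with 0 counts of both genes, belongs. Without the 3 length-skewed libraries, H2-K1 was called at log2 3.81 (adjusted p = 2.23e-06) and H2-D1 at log2 2.8 (adjusted p = 1.69e-05). Tapbp and B2m were called as well, and all 10 genes passed (39.5% of tested genes called in that fit). B2m had 2435 and 1859 CPM at day 2, against 432 and 1110.2 CPM in MEF (log2 1.48 ± 0.53, adjusted p = 0.159), with the MEF libraries further apart than for any heavy chain.

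**Figure D2:**
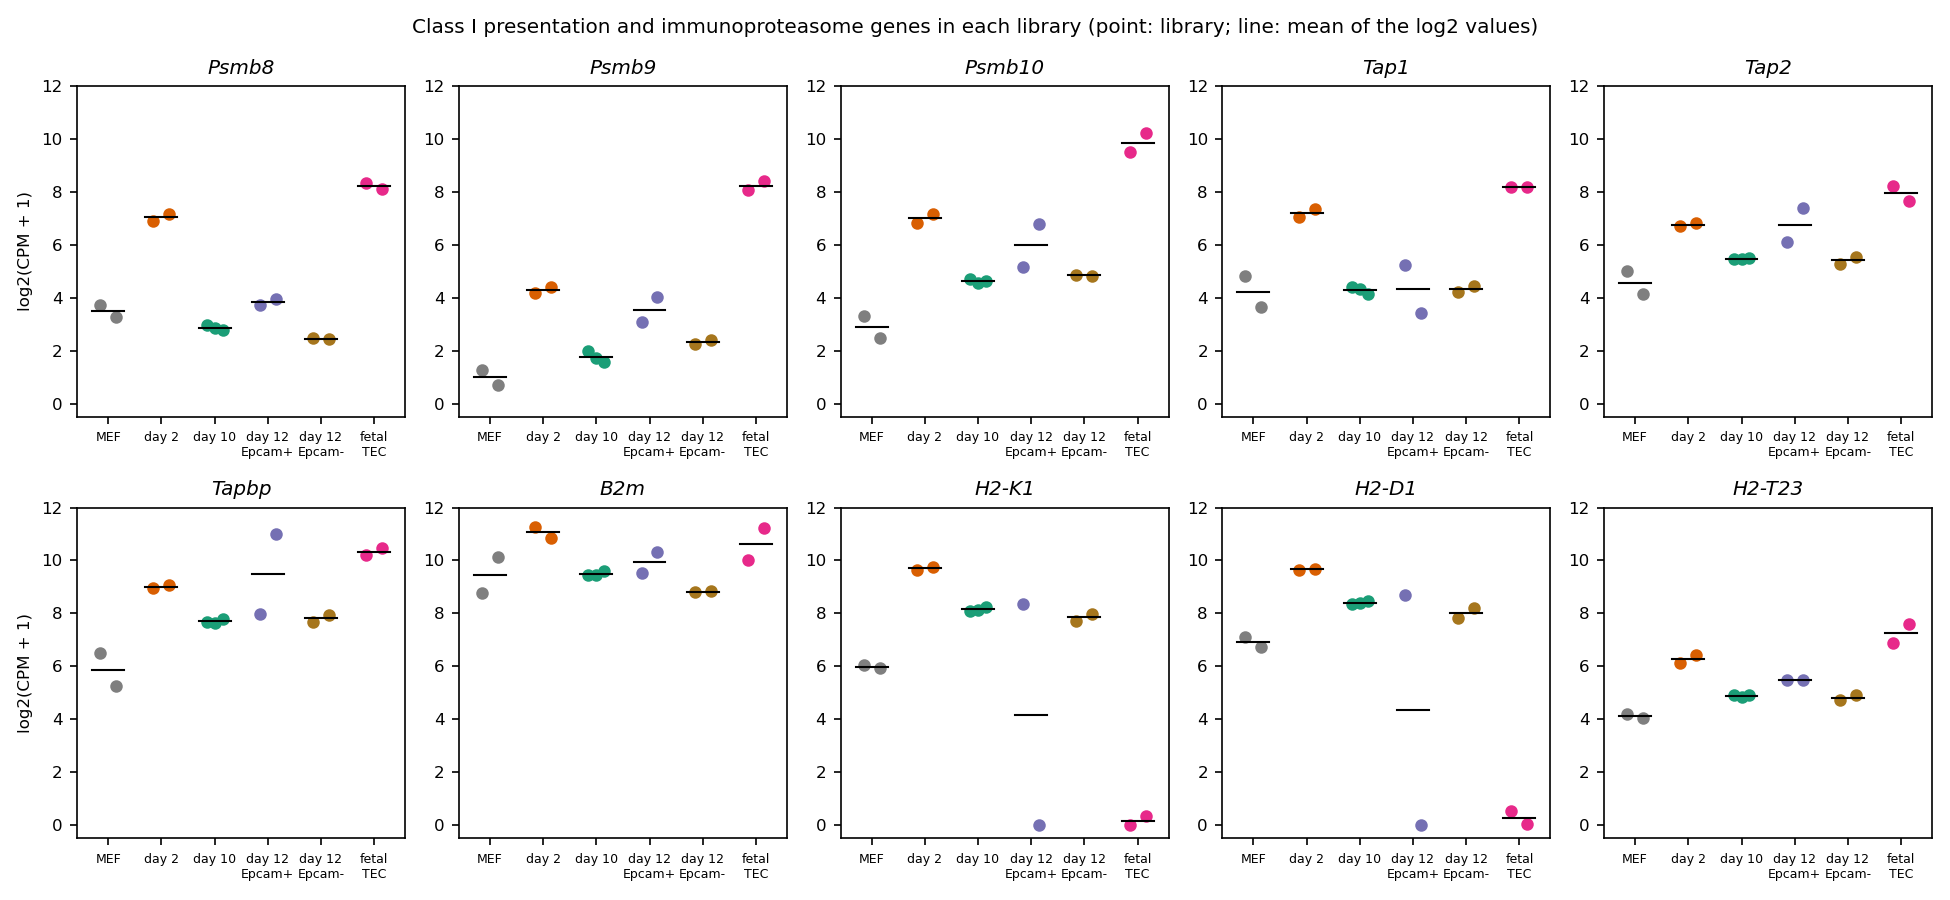
Level of each of the 10 genes as log2(CPM + 1) in the 13 libraries, by group; points are libraries and lines are means of the log2 values. Day 2 lies above MEF and above day 10 in all 10 panels, fetal TEC is highest for Psmb8, Psmb9, Psmb10, Tap1, Tap2 and H2-T23, and H2-K1 and H2-D1 are at or near 0 in the fetal TEC pair and in Epcam-positive replicate 2.

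Macrophages and dendritic cells express class I and immunoproteasome genes strongly, and their 18 markers summed to 15.9 to 18.3 CPM at day 2, with 8 at 0 (Adgre1, C1qa, Itgam, Tyrobp, Fcer1g, Spi1, Itgax and Flt3), against 3382 to 3476 CPM in MEF, where 1 (Flt3) was at 0. Whether these cells had a part in the differences between day 2 and MEF was not tested. In bulk RNA, fewer cells of a type and less RNA per cell cannot be told apart.

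By day 10 most of the day 2 rise was gone. Compared with day 2, 5 of the 10 genes fell, none rose and 5 did not pass the test (called among all tested genes: 12.6%, of which 8.24% higher and 4.41% lower), with a median log2 change of -1.56 against 0.02 over all genes. Every day 10 library was below both day 2 libraries for all 10 genes, a pattern found in 35.0% of tested genes. Both times come from libraries with Y-linked counts and without Xist above 0.0667 CPM.

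The extent of the decline differed between the subunits. Psmb8 had 6.78, 6.15 and 5.95 CPM at day 10, which is 4.8% of its day 2 mean (log2 -4.38 ± 0.26, adjusted p = 4.12e-05). Psmb9 had 2.99, 2.28 and 1.94 CPM at day 10, 12.9% of its day 2 mean (log2 -2.95 ± 0.42, adjusted p = 0.00191), and Psmb10 had 24.8, 22.7 and 23.9 CPM, 18.6% of its day 2 mean (log2 -2.42 ± 0.47, adjusted p = 0.00889). All 3 subunits were lower in every day 10 library than in either day 2 library, and the day 10 libraries overlap with no other group for any of them. Such separation was common: of all tested genes, 74.7% did not overlap between day 10 and day 2, and 68.3% between day 10 and MEF. Tap1 had 20, 19 and 16.7 CPM at day 10, 12.7% of its day 2 mean (log2 -2.97 ± 0.52, adjusted p = 0.00527). H2-T23 had 29, 27.3 and 28.8 CPM, 36.6% of its day 2 mean (log2 -1.45 ± 0.26, adjusted p = 0.00617). The calls of Psmb10 and H2-T23 were lost without day 2 replicate 2 (adjusted p = 0.0756 and 0.0845).

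The other 5 genes kept 33.4 to 41.4% of their day 2 means at day 10 and did not pass in the fit of all libraries: Tap2 at 43.4, 43 and 44.5 CPM (adjusted p = 0.0598), Tapbp at 204, 198 and 222 CPM (0.256), B2m at 693, 689.9 and 769 CPM (0.0538), H2-K1 at 274, 279 and 303 CPM (0.679) and H2-D1 at 326, 331 and 352 CPM (0.751). The 3 day 10 libraries lay close together for each of these genes, and none of their values reached a day 2 value. Without the 3 length-skewed libraries, all 10 genes passed (51.4% of tested genes called), and without both Epcam-positive libraries all 10 passed as well (35.0%).

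Set against MEF, day 10 cells did not return to 1 common level. Psmb10 was called higher at day 10 (log2 1.81 ± 0.5, adjusted p = 0.0376), the only one of the 10 (called among all tested genes: 16.0%, of which 9.42% higher and 6.58% lower), and it lost that call without any 1 of the MEF, day 2, day 10 or Epcam-negative libraries (adjusted p = 0.0632 to 0.272). Psmb8 had a negative change (log2 -0.73 ± 0.25, adjusted p = 0.0723), Tap1 and B2m were near MEF (log2 -0.06 ± 0.51 and -0.1 ± 0.47), and the other 6 genes had changes of 0.78 to 2.2 on the log2 scale that did not pass. Without the 3 length-skewed libraries, Psmb8 was called lower (log2 -0.7, adjusted p = 0.00772), and H2-K1 (log2 2.23, adjusted p = 4.59e-06), H2-D1 (log2 1.49, adjusted p = 0.00011), Tapbp, Psmb9, Psmb10, Tap2 and H2-T23 were called higher, with 56.6% of tested genes called. MEF and day 10 differ in Xist and Y-linked counts, and the macrophage and dendritic cell markers summed to 67.6 to 75.7 CPM at day 10 (9 of 18 at 0), against 3382 to 3476 CPM in MEF. The part of either in these differences was not tested.

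**Figure D3:**
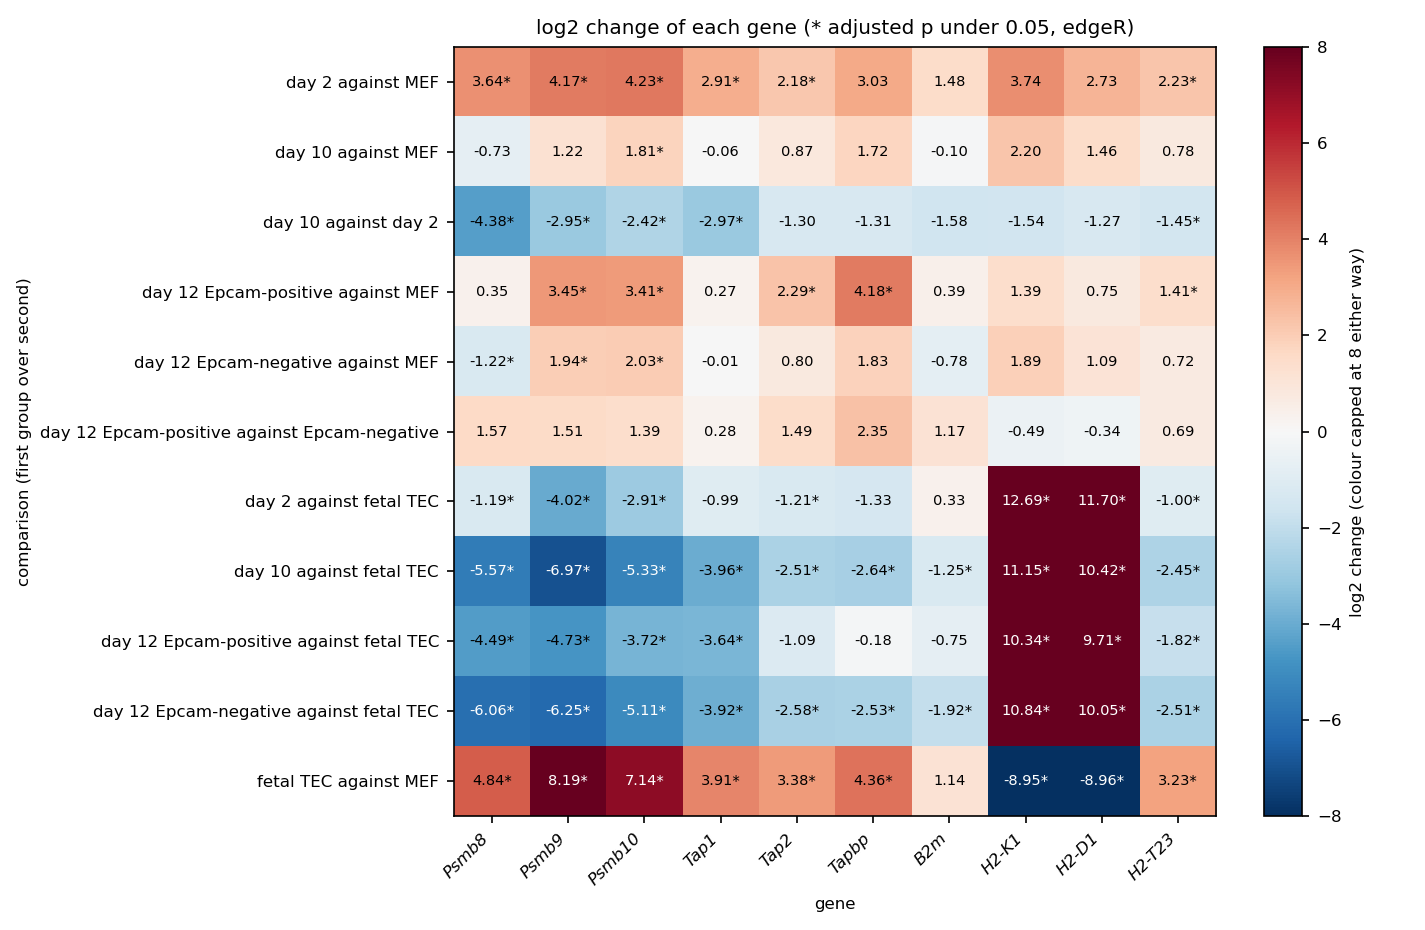
Log2 change of each gene in the 11 comparisons, first group over second; an asterisk marks an adjusted p under 0.05 in the edgeR fit of all libraries and colours are capped at 8 either way. The row of day 2 against MEF is positive for all 10 genes, that of day 10 against day 2 negative for all 10, and all 4 rows against fetal TEC hold large positive values for H2-K1 and H2-D1, which rest on 0 to 28 counts a library in fetal TEC.

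Sorting by Epcam at day 12 gave no called difference for the 10 genes. Epcam, the adhesion molecule used for the sort, marks epithelial cells. Compared with Epcam-negative cells, 0 of the 10 genes passed in Epcam-positive cells by edgeR (called among all tested genes: 0.259%, of which 0.241% higher and 0.0176% lower). An unadjusted p under 0.05 was found for 6, and DESeq2 called 4. For these counts the share of all tested genes is not given, so they are no result about the members. The Epcam-positive libraries were far apart: Tapbp had 254 and 2039.8 CPM in Epcam-positive replicates 1 and 2, against 202 and 246 CPM in Epcam-negative cells (log2 2.35 ± 0.77, adjusted p = 0.203). Psmb10 had 34.6 and 110.3 CPM in Epcam-positive cells, against 28.2 and 27.2 CPM in Epcam-negative cells (log2 1.39, adjusted p = 0.214). In both genes Epcam-positive replicate 2 made most of the difference, and that library is length-skewed.

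The Epcam-positive replicates lay close together for Psmb8 and H2-T23. Psmb8 had 12.2 and 14.4 CPM in Epcam-positive cells, against 4.51 and 4.47 CPM in Epcam-negative cells (log2 1.57 ± 0.28, adjusted p = 0.0649), and leaving out either Epcam-positive library called it (adjusted p = 0.000336 to 0.0137). H2-T23 had 43.5 and 43.9 CPM in Epcam-positive cells, against 25.2 and 28.9 CPM in Epcam-negative cells (log2 0.69, adjusted p = 0.242). Tap1 went the other way in 1 library, with 36.9 and 9.63 CPM in Epcam-positive cells, against 17.6 and 20.7 CPM in Epcam-negative cells. Without Epcam-positive replicate 1, Tapbp, Tap2, Psmb10, Psmb9 and B2m were called higher as well and H2-K1 and H2-D1 lower (adjusted p = 4.57e-05 and 2.72e-05), each from the lone library left, which is assumed to vary like the other groups. The sorted populations also differ in Xist and Y-linked counts. The macrophage and dendritic cell markers summed to 232 to 299 CPM in Epcam-positive cells (1 of 18 at 0 in both libraries), against 58.6 to 76.5 CPM in Epcam-negative cells (8 of 18 at 0). The Epcam-positive libraries were unlike in single markers. In replicates 1 and 2, Lyz2 had 76.1 and 4.72 CPM, Csf1r 19.4 and 0.436, Adgre1 9.22 and 0, and Tyrobp 5.9 and 0. The part of sex and of these cells was not tested.

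Compared with MEF, Epcam-positive cells had 5 of the 10 genes called higher and none lower (called among all tested genes: 20.3%, of which 15.9% higher and 4.40% lower): Tapbp (log2 4.18 ± 0.84, adjusted p = 0.0107), Psmb9 (3.45 ± 0.5, 0.00211), Psmb10 (3.41 ± 0.57, 0.00429), Tap2 (2.29 ± 0.46, 0.0107) and H2-T23 (1.41 ± 0.3, 0.0132). Of these, Psmb9 alone kept its call without MEF replicate 2. Epcam-negative cells had Psmb10 (log2 2.03 ± 0.54, adjusted p = 0.0376) and Psmb9 (1.94 ± 0.47, 0.0275) higher and Psmb8 lower (-1.22 ± 0.28, 0.02) than MEF (called among all tested genes: 11.9%, of which 7.37% higher and 4.53% lower), and each of these 3 calls was lost when single libraries were left out. Psmb8, a called rise of 12.5-fold at day 2, was thus called below MEF in the Epcam-negative cells of day 12, while Psmb9 and Psmb10 were called above MEF there. B2m had 443 and 457 CPM in Epcam-negative cells, the group with the lowest mean, against 432 and 1110.2 CPM in MEF.

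Fetal TEC held most of these genes at levels that no culture reached, in libraries that are length-skewed. Gapdh, a gene outside the pathway, split the libraries the same way. It had 150 and 128 CPM in fetal TEC and 188 CPM in Epcam-positive replicate 2, against 0 to 7.2 CPM in the other libraries. The part of how these libraries were made or counted in the fetal TEC levels was not tested. Compared with MEF, 7 of the 10 genes rose in fetal TEC, 2 fell and 1 did not pass (called among all tested genes: 57.8%, of which 31.5% higher and 26.3% lower). Psmb9 had 265 and 340.3 CPM in fetal TEC, against 1.44 and 0.622 CPM in MEF (log2 8.19 ± 0.62, adjusted p = 3.67e-05). Psmb10 had 719 and 1195 CPM in fetal TEC, against 9.01 and 4.55 CPM in MEF (log2 7.14 ± 0.67, adjusted p = 0.000101). Psmb8 had 323 and 276 CPM in fetal TEC, against 12.3 and 8.6 CPM in MEF (log2 4.84 ± 0.32, adjusted p = 1.98e-05). All fetal TEC values of the 3 subunits lay above every value of the other 5 groups. Wholly higher values in fetal TEC than in MEF were found in 41.7% of tested genes. Wholly lower values than in fetal TEC were found in 43.5% at day 2, 42.1% at day 10, 27.7% in Epcam-positive and 42.6% in Epcam-negative cells. The share above all 5 groups at once was not computed. Tapbp (log2 4.36 ± 0.84), Tap1 (3.91 ± 0.63), Tap2 (3.38 ± 0.48) and H2-T23 (3.23 ± 0.32) rose too (adjusted p = 0.000115 to 0.00303). B2m, at 1027 and 2379 CPM in fetal TEC against 432 and 1110.2 CPM in MEF, did not pass (log2 1.14 ± 0.52, adjusted p = 0.0843), and with an offset for transcript length its sign turned (log2 -1.06, adjusted p = 0.0917).

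Day 2 cells differed from fetal TEC unevenly. Compared with fetal TEC, 5 of the 10 genes were lower at day 2, 2 higher and 3 did not pass (called among all tested genes: 54.8%, of which 24.3% higher and 30.5% lower). Psmb9 reached 6.16% of its fetal TEC mean (log2 -4.02 ± 0.51, adjusted p = 0.000413), Psmb10 13.4% (log2 -2.91 ± 0.55, adjusted p = 0.00291) and Psmb8 43.8% (log2 -1.19 ± 0.27, adjusted p = 0.00648). Tap2 (43.5%; adjusted p = 0.0422) and H2-T23 (49.9%; 0.0182) were called lower, while Tap1 (50.4%; 0.155), Tapbp (39.8%; 0.151) and B2m (126%; 0.598) did not pass. The calls of Tap2, H2-T23, Psmb8, H2-K1 and H2-D1 were each lost without 1 or more single libraries. With an offset for transcript length, B2m was called higher at day 2 than in fetal TEC (log2 2.24, adjusted p = 0.00625), Tap1 lower (log2 -1.55, adjusted p = 0.0349), and H2-T23 lost its call (log2 -0.27, adjusted p = 0.464).

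At day 10 and in Epcam-negative cells of day 12, the share of the fetal TEC mean was lower than at day 2 for each of the 8 genes other than H2-K1 and H2-D1. At day 10, 8 of the 10 genes were called lower than in fetal TEC and 2 higher (called among all tested genes: 59.3%, of which 27.6% higher and 31.7% lower). Psmb9 stood at 0.795% of its fetal TEC mean at day 10 (log2 -6.97 ± 0.49, adjusted p = 1.63e-05), Psmb8 at 2.1% (log2 -5.57 ± 0.28, adjusted p = 7.16e-06) and Psmb10 at 2.49% (log2 -5.33 ± 0.52, adjusted p = 8.8e-05). Tap1 stood at 6.42%, Tapbp at 16%, Tap2 at 17.6%, H2-T23 at 18.3% and B2m at 42.1%. B2m lost its call without any of 8 single libraries (adjusted p = 0.0605 to 0.432), and with the length offset its sign turned (log2 0.35, adjusted p = 0.53). Epcam-negative cells of day 12 gave the same counts, 8 lower and 2 higher (called among all tested genes: 52.9%, of which 25.2% higher and 27.7% lower), with Psmb9 at 1.32%, Psmb8 at 1.5% and Psmb10 at 2.89% of their fetal TEC means.

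Epcam-positive cells had 5 genes called lower than fetal TEC and 2 higher (called among all tested genes: 35.6%, of which 19.2% higher and 16.4% lower). Psmb9 stood at 3.77% of its fetal TEC mean (log2 -4.73 ± 0.53, adjusted p = 0.000324), Psmb8 at 4.45% (log2 -4.49 ± 0.31, adjusted p = 3.82e-05) and Psmb10 at 7.57% (log2 -3.72 ± 0.57, adjusted p = 0.0016). Tap1 (8%) and H2-T23 (28.2%) were called lower too. Tap2 (47.2%; adjusted p = 0.0798), B2m (59.2%; 0.275) and Tapbp (88.4%; 0.869) did not pass. The Tapbp value rests on 1 library: at 2039.8 CPM, Epcam-positive replicate 2 was above fetal TEC at 1178 and 1417 CPM, and without it Tapbp was called lower (log2 -2.34, adjusted p = 0.00266). Fetal TEC libraries also carried thymocyte markers, 13 genes that summed to 507 to 1371 CPM with none at 0, against 0.145 to 17.5 CPM in the other groups. Their macrophage and dendritic cell markers summed to 817 to 864 CPM (Itgax at 0). Their 5 erythroid markers summed to 589 to 1259.7 CPM, against at most 0.0854 CPM in the other groups. Their 8 B and NK cell markers summed to 54.9 to 148 CPM, with the NK markers Ncr1 and Klrb1c at 0, against at most 0.14 CPM in the other groups. The part of these cells in the fetal TEC levels was not tested.

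The order of the groups was read from mean levels ± SD. Psmb8 ran 299 ± 33.2 CPM in fetal TEC, 131 ± 15.3 at day 2, 13.3 ± 1.59 in Epcam-positive cells, 10.5 ± 2.61 in MEF, 6.29 ± 0.435 at day 10 and 4.49 ± 0.0269 in Epcam-negative cells, and only the values of Epcam-positive cells and MEF overlapped as neighbours. Psmb9 ran 302 ± 53.5, 18.6 ± 2.05, 11.4 ± 5.65, 3.99 ± 0.393, 2.4 ± 0.535 and 1.03 ± 0.577 CPM in fetal TEC, day 2, Epcam-positive, Epcam-negative, day 10 and MEF. Psmb10 ran in the same order at 957 ± 337, 128 ± 20.9, 72.4 ± 53.5, 27.7 ± 0.707, 23.8 ± 1.02 and 6.78 ± 3.15 CPM, and for neither gene did neighbouring groups overlap. MEF is therefore the lowest group for Psmb9 and Psmb10 but not for Psmb8.

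Tap1 split into 2 high groups and 4 low ones, with 289.9 ± 4.82 CPM in fetal TEC and 146 ± 22 at day 2, and 18.6 to 23.2 CPM in the other 4 groups, whose values overlapped. Tap2 had 248 ± 64.4 CPM in fetal TEC, then 117 ± 69.6 in Epcam-positive cells and 108 ± 4.99 at day 2, which overlapped, then 43.6 ± 0.804 at day 10 and 41.6 ± 4.73 in Epcam-negative cells, which overlapped, and 23.8 ± 10.4 in MEF. Tapbp had 1298 ± 169 CPM in fetal TEC and 1147 ± 1263 in Epcam-positive cells, then 517 ± 28.7 at day 2, 224 ± 31.3 in Epcam-negative cells, 208 ± 12.3 at day 10 and 63.1 ± 37.2 in MEF. H2-T23 had 155 ± 53.8 CPM in fetal TEC, 77.4 ± 11.6 at day 2, 43.7 ± 0.283 in Epcam-positive cells, 28.3 ± 0.928 at day 10, 27.1 ± 2.65 in Epcam-negative cells and 16.5 ± 1.38 in MEF, with only day 10 and Epcam-negative cells overlapping. B2m had the smallest ratio of highest to lowest group mean among the 8 genes other than H2-K1 and H2-D1: its means ran 2147 ± 407 CPM at day 2, 1703 ± 957 in fetal TEC, 1009 ± 397 in Epcam-positive cells, 771 ± 479.7 in MEF, 717 ± 45 at day 10 and 449.7 ± 9.69 in Epcam-negative cells, and each neighbour but the last overlapped.

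H2-K1 and H2-D1 were the exception among the 10. H2-K1 had 0 and 13 counts in the fetal TEC libraries and H2-D1 had 28 and 2, and Epcam-positive replicate 2 had 0 counts of either gene, whereas Epcam-positive replicate 1 had 326 and 410.1 CPM of H2-K1 and H2-D1. Set against fetal TEC, both genes were called higher in all 4 iTEC groups (adjusted p = 0.00936 to 0.0245), and against MEF both were called lower in fetal TEC (adjusted p = 0.0192 to 0.0218). These 2 are not alone: 59 tested genes had at least 10 CPM in each of the other 10 libraries and under 1 CPM in each of these 3, and 18 genes had the reverse, among them 8 class I symbols (H2-Bl, H2-M10.3, H2-M10.4, H2-M10.6, H2-M11, H2-M2, H2-Q1 and H2-T3). The same 3 libraries are the length-skewed ones. How reads shared between class I genes were assigned is not stated in the sources used here. Of the principal H2-K1 transcript 8.79% of 50-base stretches occur in another class I symbol, of H2-D1 12.0%, and of H2-Q1 22.9%. The zeros are therefore given as listed counts, and the fitted log2 changes of these 2 genes against such libraries depend on the prior count and are no bound on a fold.

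Counts summed over the class I heavy chain symbols avoid the choice between near copies, but would not correct any other difference in how the length-skewed libraries were counted. H2-K1 and H2-D1 together took 70.4 to 83.8% of the counts of 32 class I symbols in the 10 other libraries, but 0, 0.00777 and 0.00343% in Epcam-positive replicate 2 and fetal TEC replicates 1 and 2. There H2-Q1 led, at 683, 1677 and 2658 CPM, against 0 to 0.108 CPM in the other 10 libraries. The sum itself was 2199.7 and 2369.8 CPM at day 2, 727, 732 and 782 CPM at day 10, 956 and 1893 CPM in Epcam-positive cells, 548 and 678 CPM in Epcam-negative cells and 5522 and 8859.9 CPM in fetal TEC, against 279 and 235 CPM in MEF.

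As a sum the class I family followed the other members. With 15 listed symbols put in the place of their single rows in the edgeR fit, the family rose at day 2 against MEF (log2 3.12 ± 0.34, adjusted p = 0.000791), fell at day 10 against day 2 (log2 -1.55 ± 0.28, adjusted p = 0.00594) and was higher in fetal TEC than in MEF (log2 4.13 ± 0.35, adjusted p = 5.58e-05). Day 10 stayed above MEF (log2 1.57 ± 0.3, adjusted p = 0.00704), as did Epcam-positive cells (log2 2.27 ± 0.33, adjusted p = 0.00186), and day 2 was below fetal TEC (log2 -1.01 ± 0.31, adjusted p = 0.0221). With all 32 symbols summed, day 2 lay further below fetal TEC (log2 -1.66, adjusted p = 0.00746). Relative to B2m, its light chain partner, the family sum in CPM was 0.903 and 1.28 at day 2, 1.02 to 1.06 at day 10, 1.31 and 1.47 in Epcam-positive cells, 1.24 and 1.48 in Epcam-negative cells and 5.38 and 3.72 in fetal TEC, against 0.647 and 0.212 in MEF; this ratio is not scaled for length, and B2m is a short transcript in libraries that differ in length bias.

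**Figure D4:**
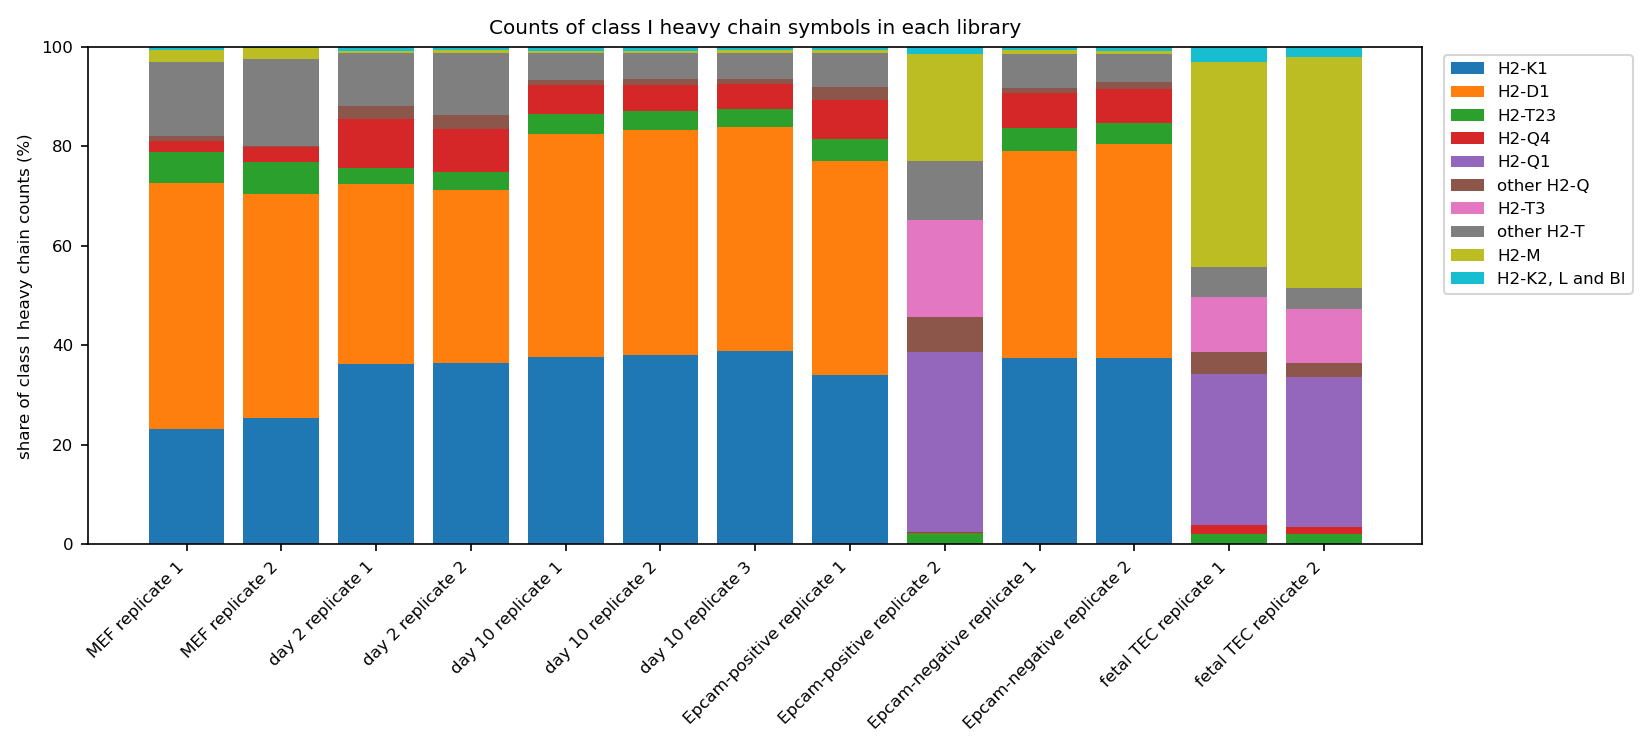
Share in percent of each class I heavy chain symbol, or group of symbols, among the counts of all 32 class I symbols in each library. H2-K1 and H2-D1 fill 70.4 to 83.8% of 10 bars, and H2-Q1, H2-T3 and H2-M symbols fill most of the bars of Epcam-positive replicate 2 and the fetal TEC pair.

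The balance between immunoproteasome and constitutive subunits was taken as the ratio of counts per kilobase of exon within each library. Psmb8 over Psmb5 was 0.691 and 0.554 at day 2, against 0.0638 and 0.102 in MEF, and was 0.0192 to 0.0224 at day 10 and 0.0119 and 0.0118 in Epcam-negative cells. Psmb9 over Psmb6 was 0.099 and 0.122 at day 2, against 0.00891 and 0.00592 in MEF, and 0.0151 to 0.0232 at day 10. Psmb10 over Psmb7 was 2.27 and 2.72 at day 2, against 0.228 and 0.132 in MEF, and 0.47 to 0.518 at day 10. In all 3 pairs both day 2 libraries lay above all MEF and all day 10 libraries, and at day 10 the Psmb8 ratio lay below both MEF libraries while the other ratios lay above both.

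Fetal TEC differed from day 2 in the mix of subunits. Psmb8 over Psmb5 was 0.175 and 0.112 in fetal TEC, below both day 2 values, since Psmb5 itself was at 489 and 651 CPM in fetal TEC. Psmb9 over Psmb6 was 0.204 and 0.193 in fetal TEC, and Psmb10 over Psmb7 was 11 and 20.5, both above day 2. Whether a ratio is above 1 depends on the exon lengths chosen (with longest transcripts, Psmb8 over Psmb5 was 1.23 and 0.982 at day 2), which cancel in comparisons of 1 pair between groups, and on the length bias of the fetal TEC libraries, which does not. Epcam-positive replicates 1 and 2 had Psmb8 ratios of 0.0348 and 0.00336, with Psmb5 at 93.2 and 1142 CPM. Psmb11, the subunit that marks cortical TEC, moved apart from the immunoproteasome: it had 1.02 and 1.22 CPM at day 2 and 70.7, 66.3 and 66.7 CPM at day 10, against 0.0138 and 0.0401 CPM in MEF, and it rose at day 10 against day 2 (log2 5.92 ± 0.68, adjusted p = 0.000641), the step at which Psmb8, Psmb9 and Psmb10 fell. It reached 1786 and 2834 CPM in fetal TEC.

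**Figure D5:**
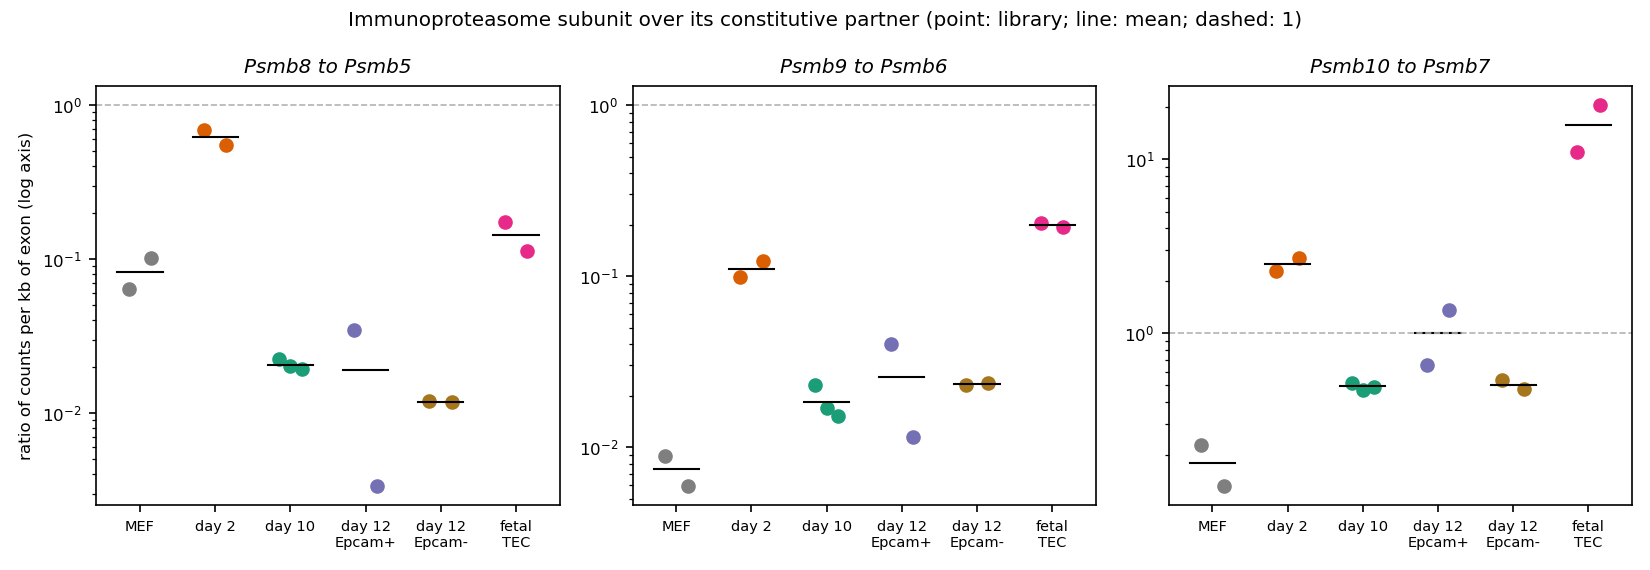
Ratio of each immunoproteasome subunit to the constitutive subunit it replaces, in counts per kilobase of exon on a log axis, by library and group; points are libraries, lines are means and the dashed line marks a ratio of 1. Day 2 exceeds MEF and day 10 in each panel, and Psmb10 over Psmb7 is above 1 at day 2, in fetal TEC and in Epcam-positive replicate 2 (1.36).

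The rest of the pathway was read from 26 other class I genes. At day 2, 5 of the 26 rose against MEF and none fell (over all tested genes, 2.87% higher and 2.65% lower), with a median log2 change of 1.19. They include Nlrc5, the activator of class I promoters, with 106 and 122 CPM at day 2, against 6.14 and 3.97 CPM in MEF (log2 4.5 ± 0.69, adjusted p = 0.00511). Psme2, a subunit of the PA28 cap that interferon adds to the proteasome, had 76.2 and 107 CPM at day 2, against 23.3 and 14.2 CPM in MEF (log2 2.29 ± 0.49, adjusted p = 0.0251). Tapbpl, a second peptide editor, rose too (log2 1.87 ± 0.46, adjusted p = 0.0443), as did H2-Q4 and Cd1d1, which encode a non-classical heavy chain and a lipid-presenting class I-like molecule. The chaperones Calr, Canx and Pdia3, which fold class I chains among many other proteins, did not pass (log2 -0.22 to 0.25, adjusted p = 0.863 to 0.965), nor did Erap1, which trims peptides to length (log2 1.68, adjusted p = 0.227).

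At day 10 against day 2, 4 of the 26 fell (Nlrc5, Psme1, Psme2 and H2-T10) and none rose (over all tested genes, 4.41% lower and 8.24% higher), with a median log2 change of -0.82. Nlrc5 had 13.4, 10.6 and 10.2 CPM at day 10 (log2 -3.32 ± 0.56, adjusted p = 0.00452). In fetal TEC, 15 of the 26 were higher and 4 lower than in MEF (over all tested genes, 31.5% and 26.3%). Nlrc5 was not among those called there: it had 3.08 and 5.8 CPM in fetal TEC, against 6.14 and 3.97 CPM in MEF (log2 -0.19, adjusted p = 0.805). Fetal TEC thus paired the highest Psmb9, Psmb10 and Tap1 levels of the series with an Nlrc5 level near that of MEF. Both fetal TEC libraries are length-skewed, with lower relative levels of long transcripts, of which Nlrc5 is one. Of the 14 genes of the 20S core, 13 were higher in fetal TEC than in MEF (31.5% over all tested genes), and 10 were higher in Epcam-positive cells than in MEF (15.9%). The Epcam-positive libraries were far apart in this core. In replicates 1 and 2, Psmb5 had 93.2 and 1142 CPM, Psmb6 94.7 and 691 CPM, and Psmb7 106 and 163 CPM. Replicate 2 is length-skewed as well, and the part of the skew in these calls was not tested.

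Interferon signalling genes were read from a list of 21. At day 2, 5 rose against MEF (Irf7, Irf1, Irf9, Socs3 and Stat2) and 1 fell (Irf8, a myeloid factor), read against the same 2.87% and 2.65%. The other 15 did not pass, and the median log2 change of the 21 was 0.15, against 0 over all genes tested. Irf7, which amplifies type I interferon, had 636 and 643 CPM at day 2, against 6.29 and 10.1 CPM in MEF (log2 6.29 ± 0.4, adjusted p = 8.76e-05). Irf1, which binds class I and immunoproteasome promoters, had 126 and 134 CPM at day 2, against 15.3 and 12.5 CPM in MEF (log2 3.23 ± 0.27, adjusted p = 0.000228). Of the 4 interferon genes in the list, Ifnb1 had 12 and 18 counts in the day 2 libraries, 0 in MEF, day 10 and Epcam-positive libraries, 1 in each Epcam-negative library and 54 and 3 in fetal TEC, and Ifng had 0 counts in every library but fetal TEC, where it had 38 and 30. Ifnl2 and Ifnl3, of the type III family, were at 0 in every library but fetal TEC, where Ifnl2 had 0.168 to 12.8 CPM and Ifnl3 had 2.1 to 3.87 CPM. At day 10 against day 2, 7 of the 21 fell, among them Irf7 (log2 -5.43 ± 0.32, adjusted p = 4.12e-05) and Irf1 (log2 -2.25 ± 0.23, adjusted p = 0.000329), and none rose (over all tested genes, 4.41% lower and 8.24% higher).

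In fetal TEC the regulators had another mix. Irf1 had 1688 and 1829.9 CPM in fetal TEC, against 15.3 and 12.5 CPM in MEF (log2 6.98 ± 0.33, adjusted p = 1.01e-05), and stood above the 126 and 134 CPM of day 2. Irf7 ran the other way, with 132 and 158 CPM in fetal TEC, below the 636 and 643 CPM of day 2. Of the 21 genes, 12 were higher and 2 lower in fetal TEC than in MEF, where 31.5% of all tested genes were higher and 26.3% lower.

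Tested genes were also ranked by likeness to the mean of the members over the 13 libraries, by Pearson's r of log2(CPM + 1). The members, the 26 other class I genes and the 15 listed heavy chain symbols were left out of the ranking. The first 10 of the remaining genes were Parp10 (r = 0.986), 4930599N23Rik (0.977), Klf10 (0.962), Gm4951 (0.959), Serpinb2 (0.949), Uba7 (0.947), Ifi47 (0.946), Iigp1 (0.939), Isg15 (0.93) and Igtp (0.93). Parp10 had mean levels of 5.67 CPM in MEF, 99.8 at day 2, 17 at day 10, 17.6 in Epcam-positive cells, 17.1 in Epcam-negative cells and 56.9 in fetal TEC. Iigp1, an interferon-induced GTPase, had 6.7, 624, 13.6, 15.2, 9.87 and 159 CPM in the same order. With H2-K1 and H2-D1 left out of the mean, the list became Ifi35 (r = 0.985), Trex1 (0.982), Mfsd2a (0.975), Upp1 (0.964), Gsdmd (0.962), Mapkapk3 (0.959), Ppa1 (0.958), Irf1 (0.956), Dph2 (0.954) and Nmi (0.953). No gene is in both lists, so which genes look most alike depends on the 2 heavy chains that are at or near 0 in 3 libraries. The points share libraries and groups, and r is a description only.

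Among themselves the members moved in 2 sets over the 13 libraries. Psmb9 and Psmb10 had r = 0.98, Psmb8 and Tap1 0.945, and H2-K1 and H2-D1 0.995, whereas H2-K1 and H2-D1 had r of -0.692 to -0.249 with the other 8. In the 10 libraries without the length skew, H2-K1 and Psmb10 had r = 0.965, and the lowest value for any pair was 0.399 (Tapbp and B2m). Of the 103 other tested genes on chromosome 17 between the start of Tapbp and the end of H2-T23, 2 (the complement genes C2 and Cfb, 1.94%) were higher at day 2 than in MEF and 0 lower by edgeR, against 2.87% higher and 2.65% lower over all tested genes. In fetal TEC 46 of them were higher and 10 lower than in MEF, against 31.5% and 26.3% over all tested genes.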

How the data were processed

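The deposited table holds raw counts per gene symbol for 13 libraries, with no scaling by the authors. Per the submitters' processing notes, FastQC, Trimmomatic, HISAT2, SAMtools, StringTie and DESeq2 were used with the mm10 build; versions, settings, the use of strand and the handling of reads shared by near copies were not stated. Columns named for the absence of Cre were taken as MEF, the only group that the name can mean.

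Counts were fitted in R 4.3.3 with edgeR 4.0.16 (limma 3.58.1): TMM scaling (factors 0.71 to 1.16), filterByExpr by group, 1 robust quasi-likelihood model with 1 mean per group over all libraries (common dispersion 0.296), and 11 comparisons with Benjamini-Hochberg adjustment over 17004 genes. The standard error was taken from the change and its F value. Marker sums and sex-linked genes are CPM by library size alone. Intervals of 3 counts cover counting error only. Lengths and positions came from GENCODE M21 (95.7% of symbols matched), promoters from RefSeq. Rank correlations with length were computed in R. Python 3.11.15 ran pandas 2.3.3 and numpy 2.4.6 for tables and matplotlib 3.10.9 for plots.

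The members, gene lists, comparisons and alternatives were chosen with earlier results of these data known. Named genes are the 10 members, their constitutive partners and Psmb11, 11 further pathway genes and regulators, and up to 4 genes of each list with the smallest p. The 10 genes most alike in pattern, outside the members and the lists of class I genes, are named too. Heavy chain symbols and genes at 0 were named after their values were seen. Alternatives were DESeq2 1.42.0 size factors and its Wald test, library size alone, no filter, a stricter filter (1 CPM in 2 libraries), a transcript length offset, replicate number as a block, separate fits of each pair of groups, a fit without the 3 length-skewed libraries, longest transcripts for the ratios, and each library left out. The fit without both Epcam-positive libraries and the sum of all class I symbols were added after seeing the data. The steps were tested on simulated data. Depending on the comparison, 6 to 21% of simulated 4-fold changes were called. At the only larger size simulated, the square of 4-fold, 68 to 84% were called. Sizes in between were not simulated. A gene that did not pass may thus still have changed.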

Additional observations from a re-analysis of the deposited data

How the results depend on the processing

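Of 2450 values of single genes under an alternative, 2148 kept their direction and side of the threshold, 144 gained a call, 124 lost one and 34 changed sign; where a cause is not named, the cause was not tested. For day 2 against MEF the count of called members stayed within 1.5 times of 6 in each alternative but 1. The fit without the 3 length-skewed libraries called 10, with 39.5% of all tested genes called. Tap1 lost its call by library size alone, and Tap1 and Tap2 lost theirs with the replicate block.

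Counts of called members depended most on which libraries set the spread. Without the 3 length-skewed libraries, 8 were called at day 10 against MEF, 10 at day 10 against day 2 and 8 in Epcam-negative cells against MEF. The shares of all tested genes called there were 56.6, 51.4 and 53.2%. Between the sorted populations that fit leaves 1 Epcam-positive library, so no count is given. Without both Epcam-positive libraries the counts were 8, 10 and 6 for day 10 against MEF, day 10 against day 2 and Epcam-negative cells against MEF. Of all tested genes, 40.2, 35.0 and 35.7% were called in them. Fits of only the groups compared called 6, 10 and 6 in those comparisons, 0 in Epcam-positive cells against MEF and 2 in Epcam-positive cells against fetal TEC. The DESeq2 Wald test called 4 at day 10 against MEF and 4 in Epcam-positive against Epcam-negative cells, and the length offset called 2 at day 10 against MEF. The share of all tested genes called is not given for the other alternatives, nor for the replicate block and single libraries left out below. Their counts show how calls move and are no result about the members.

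Replicate numbers did not pair the libraries (correlations of the deviations of replicate 1 were -0.395 to 0.243), and with a replicate block 0 members were called at day 10 against MEF, 3 at day 10 against day 2, 3 in Epcam-positive cells against MEF and 0 in Epcam-negative cells against MEF; the other comparisons stayed within 1.5 times.

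Leaving out 1 library at a time gave 4 to 9 called members at day 2 against MEF, 0 to 8 at day 10 against MEF, 3 to 10 at day 10 against day 2, 1 to 7 in Epcam-positive and 0 to 6 in Epcam-negative cells against MEF, and 0 to 8 between the sorted populations. Against fetal TEC the ranges were 4 to 9 at day 2, 8 to 10 at day 10, 5 to 9 in Epcam-positive and 6 to 10 in Epcam-negative cells, and 7 to 9 in fetal TEC against MEF.

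Sign changes (log2) were as follows. For day 10 against MEF, Tap1 was 0.07 by library size, 0.07 with the length offset, 0.1 with the replicate block and -0.55 to 0.67 without single libraries, and B2m was 0.09 by library size and -0.66 to 0.73 without single libraries. For Epcam-negative cells against MEF, Tap1 was 0.2 by library size, 0.12 with the length offset, 0.1 with the block, 0.02 without the length-skewed libraries and -0.5 to 0.72 without single libraries, and B2m was -1.32 to 0.06 without single libraries. For Epcam-positive cells against MEF, B2m was -0.75 with the length offset, -0.09 without the length-skewed libraries and -0.16 to 1.22 without single libraries, and without single libraries Tap1 was -1.01 to 0.97, H2-K1 -14.87 to 2.39 and H2-D1 -15.84 to 1.75. Between the sorted populations, H2-K1 was 0.47 and H2-D1 0.62 without the length-skewed libraries, and without single libraries Tap1 was -0.99 to 0.94, H2-K1 -16.75 to 0.51 and H2-D1 -16.93 to 0.66. Against fetal TEC, the length offset gave B2m 0.35 at day 10 and 0.31 in Epcam-positive cells, and leaving out single libraries gave B2m down to -0.14 at day 2, and Tapbp -2.34 to 0.67, H2-K1 -5.83 to 16.33 and H2-D1 -6.92 to 12.24 in Epcam-positive cells. In fetal TEC against MEF, B2m was -1.06 with the length offset.

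Summed over all class I symbols, Epcam-negative cells against MEF gave log2 1.25 and no longer passed. With longest transcripts, Psmb8 over Psmb5 was 0.147 in MEF, 1.1 at day 2, 0.0366 at day 10, 0.021 in Epcam-negative cells and 0.255 in fetal TEC, Psmb9 over Psmb6 was 0.00486, 0.0722, 0.0121, 0.0152 and 0.13 in the same groups, and Psmb10 over Psmb7 was 0.534 at day 10 and 0.548 in Epcam-negative cells, since the lengths scale every group alike.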
